A study of Caenorhabditis elegans with 12 samples.

Results

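Small RNAs bound to a FLAG-tagged WAGO-1 that carries the P3G change were compared, gene by gene, with the small RNAs of the lysates from which it was pulled down. The values are read counts on the 20134 WormBase gene identifiers of the deposited table, taken from 3 WAGO-1 P3G IP (immunoprecipitation) libraries and 3 WAGO-1 P3G input libraries. The table holds 75393 features in all, and its other 55259 features are genomic intervals, used here as background only. All animals were whole Caenorhabditis elegans larvae staged at L4 and grown at 15 °C. The WAGO-1 P3G IPs and the WAGO-1 P3G inputs both came from animals with the genotype WAGO-1::FLAG P3G together with a WAGO-3 carrying P2G and A3E, so the tagged bait and both altered Argonautes were present in the inputs too. A second strain, 1xFLAG::CSR-1, gave 3 CSR-1 IP and 3 CSR-1 input libraries, which serve as a comparison bait with its own inputs. All IPs used a FLAG antibody. No IP from untagged animals and no IP of a WAGO-1 without P3G was analysed here. The RNA of inputs, and not that of IPs, passed through a kit that enriches small RNA, from 500 ng of total RNA, so every IP over input value also holds that step. For the WAGO-1 P3G libraries the opening of the free-text description has the roles exchanged: that of the IPs speaks of extract taken before the IP, and that of the inputs of immunoprecipitated material, as it also does for both CSR-1 groups. Title, antibody field and sample name matched each other and set the groups. Were the description right instead, every IP over input direction given here for WAGO-1 P3G would be turned round.

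Argonautes are the proteins that hold small RNAs and use them to find complementary RNA. In C. elegans most small RNAs against genes are made by RNA-dependent RNA polymerases on the target transcript and are antisense to it, so that reads on a gene usually report small RNAs that target this gene and not its expression. WAGO-1 is a germline Argonaute of P granules that carries such secondary small RNAs against silenced genes, transposons and pseudogenes, whereas CSR-1 carries those against genes expressed in the germline. The series concerns the trimming of Argonautes by a protease and the small RNAs that they take up. The strand of the counted reads is not given in the sources used here, so antisense origin was not checked.

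The files do not pair the identifiers with gene names, and 0 of the 20134 identifiers were found in the RefSeq gene table. Bait genes, gene families and tissue markers could therefore not be located, and no gene function is given to any identifier. Identifiers are described by rank, level and change, and 4 are given by their ID.

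Libraries held 10952884 to 13473204 reads per WAGO-1 P3G IP and 1235462 to 1373120 per WAGO-1 P3G input. Those counted to any feature numbered 7403373 to 9187525 per IP and 334088 to 355028 per input. Identifiers took 88.9% ± 0.119 of counted reads in the IPs and 91.9% ± 0.102 in the inputs (SD, n = 3 each). The deeper IPs therefore measure low levels far better than the inputs, where 1 read is worth about 3 CPM (CPM are counts scaled to a common library total of counted reads). Counts of replicate IPs varied 1.44 to 2.38 times as much as read sampling alone would give, and those of replicate inputs up to 1.30 times (chi-square over its degrees of freedom). Whether replicates came from separate cultures is not stated in the labels. All p-values therefore refer to the variation among these libraries alone, which may be technical. CSR-1 IP A stood apart from CSR-1 IPs B and C (8.74 and 7.34 times, against 1.64 between B and C), so values of the CSR-1 IPs are given by library where they matter. CSR-1 input A stood apart less from CSR-1 inputs B and C (2.54 and 1.93 times, against 1.19 between B and C). Of the 20134 identifiers, 1407 had no count in any of the 12 libraries, 9191 had too few for a test and 9536 were tested. The untested ones held 1.08% of identifier reads in the IPs and 1.28% in the inputs on average.

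Few genes dominated the small RNAs bound to WAGO-1 P3G. The 10 most abundant identifiers of each library held 18.4%, 18.3% and 18.4% of identifier reads in the IPs, against 10.7% ± 0.403 in the inputs (SD, n = 3). The 100 most abundant held 49.4% ± 0.170 in the IPs and 36.1% ± 0.875 in the inputs (SD, n = 3 each). It took 105.3 ± 1.15 identifiers to reach 50% of identifier reads in the IPs (SD, n = 3), against 342, 309 and 356 identifiers in inputs A, B and C. IPs and inputs did not overlap in any of these measures. Each 2-sided exact permutation test gave p = 0.1, the smallest that 3 against 3 libraries allow (adjusted p = 0.1 over 11 such tests). With every library thinned to 334088 counted reads, the values were 18.4% and 10.7% for the 10 most abundant and 105.3 and 335.7 identifiers for 50%, in IPs and inputs on average. The CSR-1 IPs lay on the other side of their inputs, with 5.09% ± 0.0841 on the 10 most abundant identifiers against 8.07% ± 0.449 in the CSR-1 inputs (SD, n = 3 each). There, 536 ± 6.93 identifiers held 50% in the IPs and 410.3 ± 19.6 in the inputs.

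**Figure D1:**
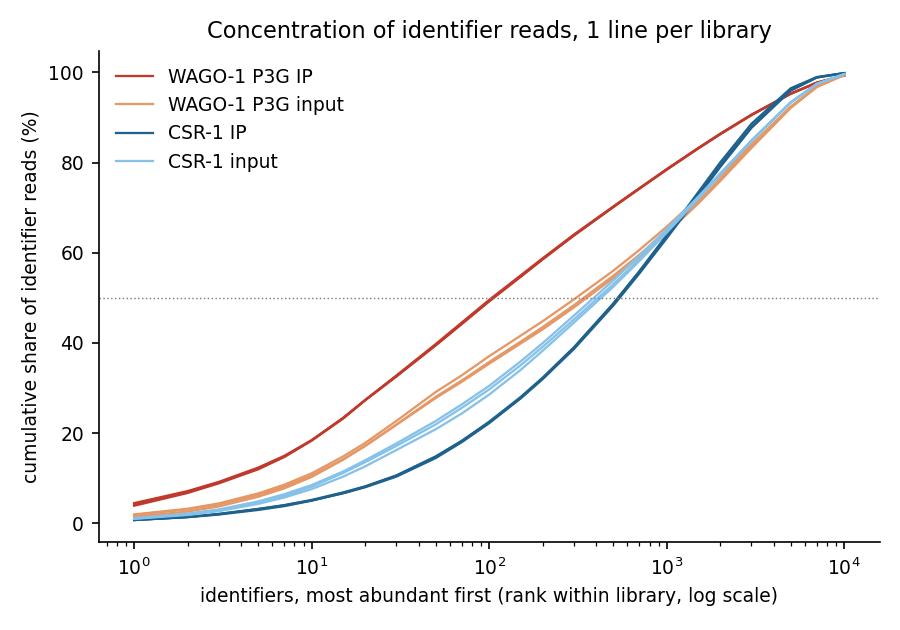
Cumulative share of identifier reads (percent, vertical axis) against the rank of identifiers by abundance within each library (log scale, horizontal axis), 1 line per library, coloured by group. The 3 WAGO-1 P3G IP lines reach 50% (dotted) at 105.3 identifiers on average, left of their inputs at 309 to 356, and the CSR-1 IP lines reach it last, at 532 to 544.

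The most abundant identifier of the WAGO-1 P3G IPs was WBGene00206497, with 38185, 34626 and 39716 CPM in IPs A, B and C, against 17309, 18034 and 13351 CPM in inputs A, B and C. All 3 IPs stood above all 3 inputs, although the gene was already the most abundant of the inputs. The fitted log2 fold change was 1.80 ± 0.13 (SE, n = 3 and 3, edgeR adjusted p = 1.68e-11). WBGene00194660, the next in the IPs and the third in the inputs, had 23443, 25117 and 23817 CPM in the IPs, against 10158, 10868 and 10430.2 CPM in the inputs. Here too the groups were far apart, with a log2 fold change of 1.80 ± 0.10 (edgeR adjusted p = 2.45e-13). In single libraries the leading identifier alone held 3.90% to 4.47% of identifier reads in the IPs and 1.45% to 1.96% in the inputs.

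The 12 most abundant identifiers, WBGene00206497 and WBGene00194660 among them, had 9224 to 37509 CPM on average in the IPs and 4461 to 16231 CPM in the inputs. Together they held 20.5% ± 0.0875 of identifier reads in the IPs and 10.1% ± 0.373 in the inputs (SD, n = 3 each). All 12 were called higher, with log2 fold changes of 1.22 to 1.85, and for all 12 the lowest IP was above the highest input. Their level in the IPs chose them, so this direction is a description. All 12 ranked among the 26 most abundant identifiers of the inputs. The IP thus led with genes that also led before it, each about 1.5 to 2.4 times higher in CPM: the ratio of mean CPM was 1.54 to 2.38.

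The same holds for the wider list of the 100 most abundant identifiers of the IPs. In the inputs 76 of them were among the 100 most abundant as well, and they held 49.4% ± 0.163 of identifier reads in the IPs against 27.5% ± 0.806 in the inputs (SD, n = 3 each). Of the 100, 99 were called higher and 1 lower, beside 31.3% of tested identifiers called higher and 37% called lower, with a median log2 fold change of 1.34. In CPM, 94 of the 100 had all 3 IPs above all 3 inputs and 5 had all 3 below. Among all tested identifiers, 22.6% were called higher with all 3 IPs above and 36.7% called lower with all 3 below. Level in these same IPs chose the 100, so their direction and separation are a description. In the CSR-1 libraries, which had no part in choosing them, these 100 identifiers held 4.43%, 5.65% and 5.84% of identifier reads in IPs A, C and B, against 21.6% to 23.1% in the CSR-1 inputs. Of the 100, 93 were called lower in the CSR-1 IP over its input, 4 higher and 3 neither, beside 28.1% of tested identifiers called lower there and 42% called higher. Abundant identifiers were mostly lower with CSR-1 in general: 67.3% of the 220 with 500 to 2000 CPM in the CSR-1 inputs and 94.9% of the 39 with 2000 CPM or more were called lower. The 100 had a median of 1122 CPM there, which falls in the group with 67.3% called lower, against 93 of the 100. Both groups include some of the 100 themselves, and a comparison at matched level was not made.

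Over all tested identifiers, edgeR called 2989 higher and 3526 lower in the IPs at a Benjamini-Hochberg adjusted p under 0.05, and 3021 neither. These are 31.3% and 37% of the 9536 tested, beside 55% and 6.53% of 1286 tested intervals. Of the identifiers called higher, 2159 had all 3 IPs above all 3 inputs in CPM (22.6% of those tested), and 31 had all 3 below. Of those called lower, 3497 had all 3 below (36.7% of those tested). The median log2 fold change was -0.12, with quartiles of -1.28 and 1.04. The sign of that median is not a result, since it turned under 10 of 21 alternatives. The split depends on the scaling: with library totals of counted reads alone, 25.2% of calls were higher in place of 45.9%, and the count of higher calls was 1549. Those totals leave out reads on no feature, 31.9% of reads in the IPs and 73.3% in the inputs. Scaling by all reads, which would raise every IP over input value above those from counted totals, was not run. Without a filter on low counts 64.3% were higher. Fitted folds, which include the composition scaling, exceeded CPM ratios (median 1.51 times), and for 136 identifiers called higher the mean CPM was lower in the IPs than in the inputs.

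Losses were steeper than gains. Of the called identifiers, 387 were at least 4-fold higher and 1149 at least 4-fold lower, and at 16-fold the counts were 21 and 114. Where the 6 libraries averaged 20 CPM or more, 108 were at least 4-fold higher and 650 at least 4-fold lower, and at 16-fold 0 were higher and 78 lower. All 21 identifiers called at least 16-fold higher had 0 or 1 count in the 3 inputs together and 44 to 433 counts in the 3 IPs. For the 14 of them with 0 input counts, 3 counts over the 3 inputs allow up to 2.92 CPM, and the level over the pooled IPs was above that for 11. The fold of those 11 was thus at least 1.00 to 3.22, and the fitted values set no bound. These points form the rising streak at the upper left of the plot of fold change against level.

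**Figure D2:**
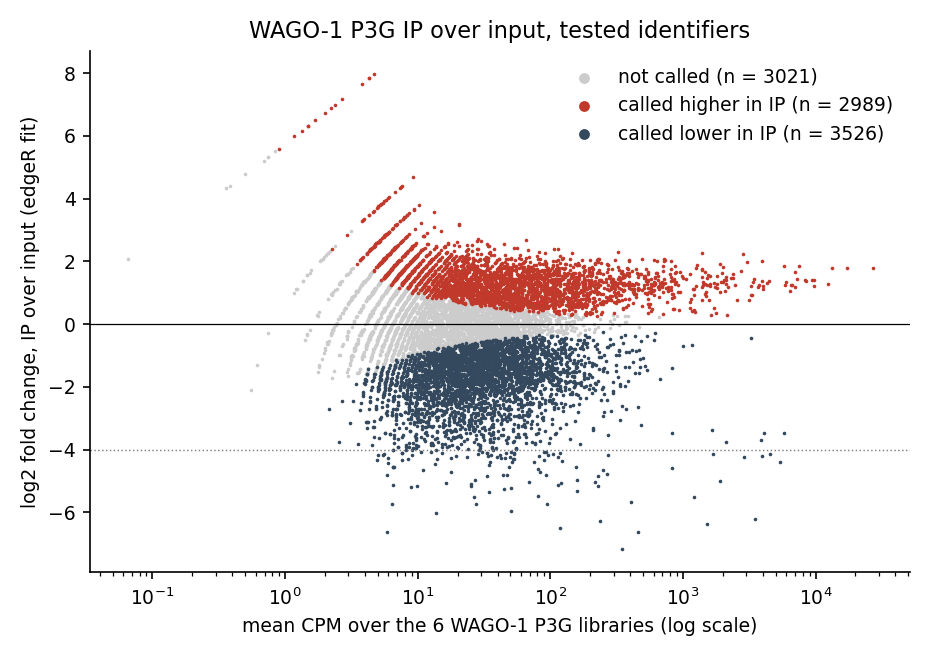
Fitted log2 fold change of IP over input (vertical axis) against mean CPM over the 6 WAGO-1 P3G libraries (log scale, horizontal axis) for the 9536 tested identifiers, 1 point each. Called higher (red, 2989) runs in a narrow band up to the most abundant identifiers, called lower (dark, 3526) spreads down to -7.16, and the dotted line marks -4.

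Among identifiers with at least 20 CPM and no overlap between the groups, the 12 largest rises had log2 fold changes of 2.48 to 3.18. They were of middling abundance, at 35.0 to 106.8 CPM on average in the IPs and 5.75 to 25.3 CPM in the inputs, and ranked between 976 and 2643 among the IP's identifiers. The largest of them had 36.6, 33.9 and 35.2 CPM in the IPs, against 5.88, 5.99 and 5.63 CPM in the inputs, and its input values rest on 6 counts. The fourth had 103.4, 113.3 and 103.8 CPM in the IPs, against 23.5, 26.9 and 25.3 CPM in the inputs. None of the 12 was among the most abundant identifiers of the IPs, so this list and that of the dominating genes were separate. The input values of the 12 rest on 6 to 26 counts each over the 3 inputs. The ranking by fold draws on such low counts, so the separation of the lists is a description. All 12 were called lower in the CSR-1 IP over its input, with log2 of -0.89 to -2.01. Among all tested identifiers, 28.1% were called lower there and 42% higher. The difference of log2 enrichments between the baits was 3.56 to 4.55 for the 12. That difference contains the rise that chose them and is a description.

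At 20 CPM or more, direction went with the level of a gene's small RNAs, but not below. To keep the level apart from the libraries compared, identifiers were grouped by their mean CPM in the 3 CSR-1 inputs. Of the 39 with 2000 CPM or more there, 79.5% were called higher for WAGO-1 P3G and 20.5% lower, at a median log2 of 1.27. Of the 220 with 500 to 2000 CPM, 63.6% were higher and 34.1% lower, at a median of 0.97. Of the 1288 with 100 to 500 CPM, 46.4% were higher and 42.9% lower, at a median of 0.13. Of the 4062 with 20 to 100 CPM, 28.5% were higher and 42.8% lower, at a median of -0.31. The groups of 5 to 20 CPM and under 5 CPM had medians of -0.23 and 0.94. The last of these holds 939 identifiers with almost no input reads in CSR-1, which passed the filter through other libraries. The share called depends on the read number as well, so the medians are the better measure of direction.

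A set of genes was nearly lost from the WAGO-1 P3G IP. By the rule of a call, a log2 fold change of -4 or below and at least 20 CPM on average in the inputs, 90 identifiers were nearly lost, 0.944% of those tested. They held 7.09%, 7.25% and 7.35% of identifier reads in inputs A, B and C, and 0.193%, 0.218% and 0.193% in IPs A, B and C. Their level ranged from 0.239 to 325.7 CPM in the IPs and from 20.3 to 10395 CPM in the inputs, with medians of 3.15 and 102.0 CPM. None was at 0 counts in the IPs: of the 3362 identifiers with at least 50 counts in the inputs, 0 had no count in the IPs. The count of 90 moves with the processing, to 199 with library totals alone and to 44 without a filter on low counts, which changes both the features tested and the scaling. It was 53, 59 and 59 without WAGO-1 P3G input A, B or C and 54, 52 and 54 without CSR-1 input A, B or C. All of the 90 that each of the 21 alternatives could test, 78 to 90 of them, were still called lower. Their steep loss in these same counts chose them, so this is a description. Of all 3526 lower calls, 62.1% were kept without a filter on low counts.

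The steepest loss was at WBGene00010102, with 3.48, 3.51 and 2.61 CPM in IPs A, B and C, against 726.6, 652.5 and 701.4 CPM in inputs A, B and C. The log2 fold change was -7.16 ± 0.16 (SE, n = 3 and 3, edgeR adjusted p = 8.11e-21), a fitted 143-fold lower level, and 79 counts in all remained in the IPs. Among identifiers with at least 20 CPM over the 6 libraries, WBGene00017225 followed, with 5.40, 7.29 and 5.66 CPM in the IPs against 776.6, 862 and 1090.05 CPM in the inputs, a log2 fold change of -6.62 ± 0.19 (edgeR adjusted p = 3.76e-19). In both cases the highest IP lay more than 100-fold below the lowest input in CPM.

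Steepest losses were drawn only from identifiers called lower that averaged 20 CPM or more in the 6 libraries, with IPs and inputs fully apart. That separation was thus a condition of choice and not a result. The 12 steepest losses had log2 fold changes of -5.51 to -7.16. In the IPs they had 0.653 to 61.8 CPM on average, and in the inputs 52.4 to 6951 CPM. They include some of the most abundant identifiers of the inputs. The one ranked 13 in the inputs had 55.2, 66.3 and 63.8 CPM in the IPs, against 6119, 5998 and 8735 CPM in the inputs. The one ranked 37 had 19.9, 33.8 and 19.2 CPM in the IPs, against 2971, 3143 and 2907 CPM in the inputs. At the low end, the ninth of the list had 0.360, 0.946 and 0.653 CPM in the IPs, against 50.0, 50.9 and 62.0 CPM in the inputs, and its IP values rest on 16 counts.

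**Figure D3:**
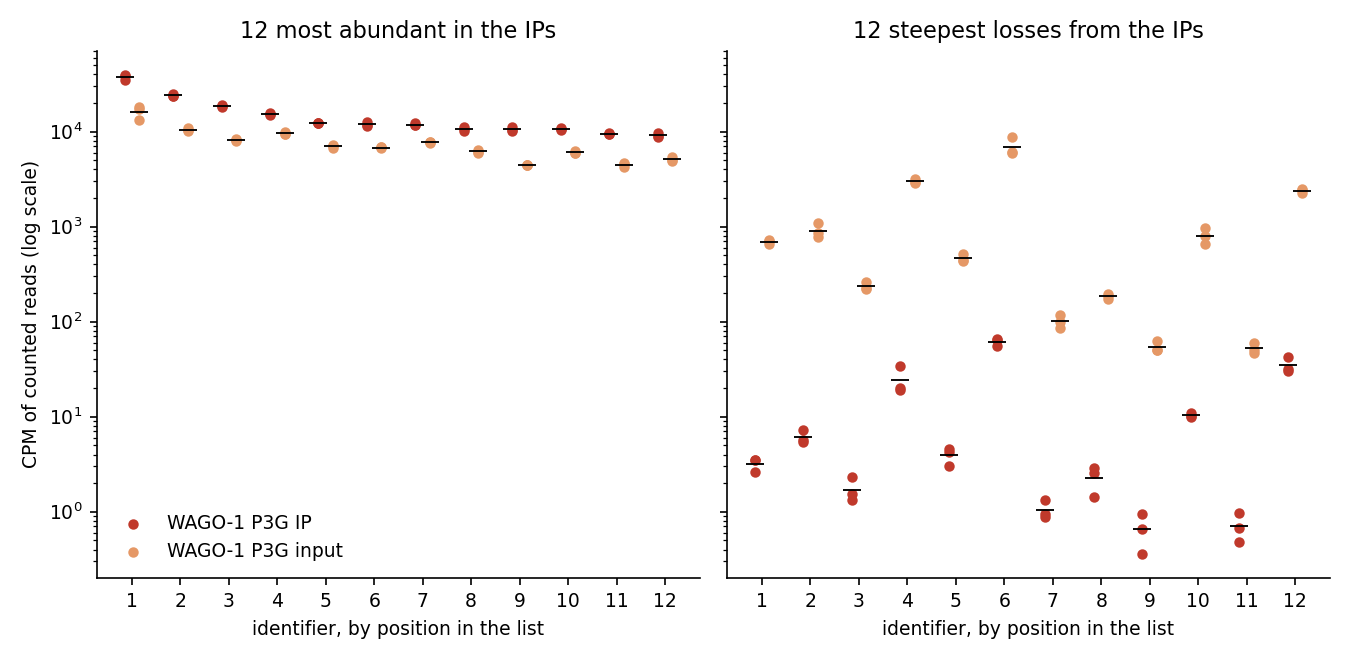
CPM of counted reads (log scale) in the 3 WAGO-1 P3G IPs (red) and 3 inputs (orange) for the 12 identifiers most abundant in the IPs (left panel) and the 12 with the steepest losses (right panel), 1 point per library, with a bar at the mean. On the left the IPs lie 1.54 to 2.38 times above the inputs, and on the right the inputs lie 68.5 to 217 times above the IPs.

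The most abundant identifiers of the inputs went both ways in the IP. Of the 100 most abundant identifiers of the WAGO-1 P3G inputs, 79 were called higher and 21 lower, beside 31.3% and 37% of tested identifiers. The sign of the call formed these groups, so their medians, separation and shares of WAGO-1 P3G reads are a description. The median log2 fold changes were 1.27 and -3.75. In CPM, 70 of the 79 had all 3 IPs above all 3 inputs and 7 had all 3 below. Among all tested identifiers, 22.6% were called higher with all 3 IPs above. Of these 100, 16 were at least 4-fold lower, 10 of them by the nearly lost rule, and 20 lay within 2-fold either way. The 79 held 45.4% ± 0.170 of identifier reads in the IPs and 25.4% ± 0.709 in the inputs. The 21 held 0.834% ± 0.0188 in the IPs and 10.6% ± 0.290 in the inputs (SD, n = 3 each). In the CSR-1 IP over its own input, 72 of the 79 were called lower and 4 higher, and 18 of the 21 were called lower and 3 higher. Both groups were thus mostly lower with CSR-1 (medians of -1.67 and -1.24). The median levels of the 79 and the 21 in the CSR-1 inputs were 1379 and 1657 CPM. Of all identifiers with 500 to 2000 CPM there, 67.3% were called lower, and 94.9% of those with 2000 CPM or more. A comparison at matched level was not made.

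Most genes enriched with WAGO-1 P3G were not enriched with CSR-1. Of the 2989 identifiers with a higher call for WAGO-1 P3G, 1612 were called lower in the CSR-1 IP over its input, 483 higher and 894 neither, beside 28.1% of tested identifiers called lower there and 42% called higher. The 483 make up 16.2% of the higher calls of WAGO-1 P3G and 12.05% of the 4009 of CSR-1. Of the 3526 called lower in the WAGO-1 P3G IP, 2037 were called higher in the CSR-1 IP, 600 lower and 889 neither, against the same 42% and 28.1% of all. The contrasts use separate libraries but were fitted and scaled together. Together, those 2989 held 18.7%, 20.9% and 20.7% of identifier reads in CSR-1 IPs A, B and C, against 54.6%, 53.9% and 53.7% in CSR-1 inputs A, B and C. The 3526 held 64.4% ± 0.799 in the CSR-1 IPs and 33.8% ± 0.837 in the CSR-1 inputs (SD, n = 3 each). Across the 9536 tested identifiers, the 2 log2 enrichments had a Pearson correlation of -0.29 and a Spearman correlation of -0.39, given as a description, since identifiers share libraries.

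Among identifiers lower with WAGO-1 P3G, the CSR-1 result varied with the size of the loss. Of the 638 lower by less than 2-fold, 81.5% were called higher in the CSR-1 IP and 6.90% lower. Of the 1739 lower by 2- to 4-fold, 72.6% were higher with CSR-1 and 7.99% lower, at a median CSR-1 log2 of 1.48. Of the 743 lower by 4- to 8-fold, 32.8% were higher and 27.2% lower. Of the 406 lower by 8-fold or more, 2.71% were higher and 53.0% lower, at a median CSR-1 log2 of -1.10. Among all tested identifiers 42% were higher with CSR-1 and 28.1% lower. The moderately lower genes were thus mostly those recovered with CSR-1, and the steeply lower ones were seldom recovered with either bait. The bounds between these classes were chosen after the values were seen.

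Of the 90 nearly lost identifiers, 72 were called lower in the CSR-1 IP over its input, 1 higher and 17 neither, at a median log2 of -1.43, beside 28.1% of tested identifiers called lower and 42% called higher. The difference of log2 enrichments, WAGO-1 P3G minus CSR-1, had a median of -3.15 and was called lower for 89 of the 90, beside 44.5% of tested identifiers. This difference contains the WAGO-1 P3G value that chose the 90, so it is a description. For WBGene00010102, CPM was 28.3, 38.3 and 37.3 in CSR-1 IPs A, B and C, against 130.9, 159.4 and 176.9 in CSR-1 inputs A, B and C, and the CSR-1 log2 fold change was -1.77 ± 0.15 (edgeR adjusted p = 1.98e-10). For WBGene00017225 it was -1.17 ± 0.18 (edgeR adjusted p = 2.70e-06). The CSR-1 IPs did not overlap their inputs for either gene, and IP A was the lowest of the 3 IPs for both.

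**Figure D4:**
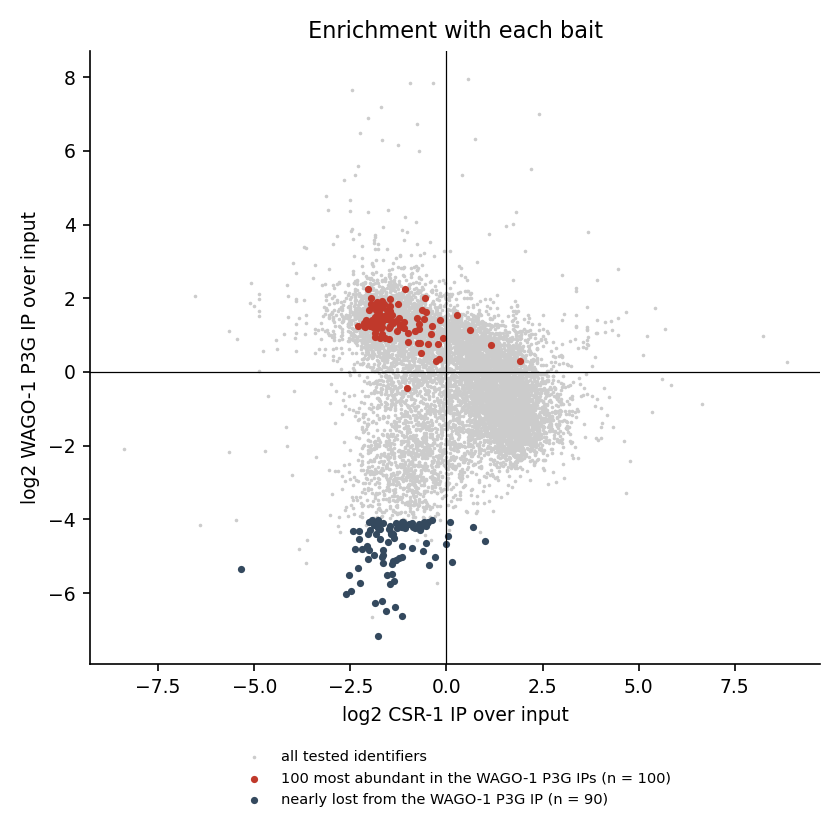
Log2 fold change of WAGO-1 P3G IP over input (vertical axis) against that of CSR-1 IP over input (horizontal axis), 1 point per tested identifier. The 100 identifiers most abundant in the WAGO-1 P3G IPs (red) lie mostly at the upper left, with medians of 1.34 and -1.59, and the 90 nearly lost ones (dark) lie at the bottom, at medians of -4.42 and -1.43.

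The difference between the baits was tested for every identifier. The log2 enrichment was higher with WAGO-1 P3G for 2692 identifiers and higher with CSR-1 for 4244, which are 28.2% and 44.5% of those tested (edgeR, adjusted p under 0.05). Without CSR-1 IP A the counts were 2366 and 3701, of only 7666 identifiers tested in that refit. For the 12 most abundant identifiers of the WAGO-1 P3G IPs the difference was log2 2.84 to 3.75, a description too, since their level in these IPs chose them. WBGene00206497 had 1004, 1534 and 1489 CPM in CSR-1 IPs A, B and C, against 7230.1, 7186 and 6112 CPM in CSR-1 inputs A, B and C, and so was lower in every CSR-1 IP. Even so, 7 of these 12 were among the 100 most abundant identifiers of the CSR-1 IPs.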

How the data were processed

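The deposited table holds raw counts, not normalized, of small RNA reads per feature in 12 libraries read for 50 cycles. Per the submitters' processing notes the tools were HTSeq 0.11.2, cutadapt 2.3, Bowtie 1.2.3 and SAMtools 1.9 with build ce11, with no role stated. Strand setting, annotation and the handling of multiply aligned reads were not given in the sources used here, so identifiers of near-identical or overlapping genes are uncertain. Entries for reads on no feature (31.9% of reads in WAGO-1 P3G IPs, 73.3% in their inputs) or ambiguous were left out.

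CPM were computed from counted reads. Tests used edgeR 4.0.16 in R 4.3.3 on all 12 libraries: filterByExpr by group, TMM factors, quasi-likelihood F tests with 8 residual degrees of freedom, Benjamini-Hochberg adjustment over 10822 features. SEs are approximate (absolute log2 fold change divided by the root of F). The fit was tested on simulated data with 200 features changed, in equal numbers up and down. That cannot test the scaling where far more features change, as in these data. Shares were compared by exact permutation, 2-sided, over 11 measures. DESeq2 1.42.0, other scalings, filters and libraries left out were alternatives.

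By rule, the 12 most abundant, 12 largest rises and 12 steepest losses were described; only 4 IDs are printed because no names were at hand. Prepared gene lists matched 0 identifiers and were not used. The rules were chosen with earlier results of these data known.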

Additional observations from a re-analysis of the deposited data

Results flagged for a closer look

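For 4 identifiers the enrichment itself differed between the baits, as the difference of log2 IP over input, WAGO-1 P3G minus CSR-1, with n = 3 libraries per group and adjusted p from edgeR. It was 3.75 ± 0.18 (SE) for WBGene00206497 (adjusted p = 4.89e-15) and 3.57 ± 0.14 for WBGene00194660 (adjusted p = 2.20e-16). It was -5.39 ± 0.22 for WBGene00010102 (adjusted p = 3.12e-16) and -5.45 ± 0.26 for WBGene00017225 (adjusted p = 2.45e-15). The 4 were chosen by their WAGO-1 P3G level or loss, which enters the difference, so these p-values are no independent support. Among all tested identifiers the difference was called higher for 28.2% and lower for 44.5%, so a called difference is not particular to the 4. The first pair was higher than its input with WAGO-1 P3G and lower with CSR-1, and the second pair was lower with both. Bait, tag and genotype differ together between the strains and cannot be told apart.

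Outside the features, reads that the table counts as ambiguous were 0.145% ± 0.00141 of the total in IPs of WAGO-1 P3G and 0.0514% ± 0.00139 in its inputs (SD, n = 3 each). In CSR-1 they were 0.0897% ± 0.00179 in the IPs and 0.0970% ± 0.00254 in the inputs.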

How the results depend on the processing

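Across up to 21 alternatives, the 36 identifiers chosen by rule kept their direction and their call in the IP over input in all 755 values. Their level or change in these same counts chose them, so this is a description. The difference between baits was kept in 718 of 719, and the 1 exception was a loss that, thinned, had log2 -0.87. The log2 fold change of WBGene00206497 ran from 1.21 to 2.35 and that of WBGene00010102 from -7.75 to -6.53. With library totals alone, 1549 identifiers were called higher and 199 nearly lost. Without a filter, 44 were nearly lost and the median log2 of identifiers was 1.09. With at least 10 CPM in 3 libraries these were 51 and 0.14. The median was 0.0378 with identifiers alone and 0.0418 with the 6 WAGO-1 P3G libraries alone. Thinned to equal depth, 1804 identifiers were called lower, and 2222 lower in the difference, with 6148 tested. Leaving out 1 library at a time gave 2525 to 4010 higher, 2682 to 3207 lower, 52 to 85 nearly lost, a median of -0.19 to 0.28, and 2296 to 2935 higher and 3451 to 3993 lower in the difference. These refits tested other numbers of features. With 1 library left out, the share on the 10 most abundant identifiers, IP minus input, was 7.56 to 7.96 percentage points, and the same difference in the number holding 50% was -243.7 to -220.2. With all counted reads as the denominator they were 6.57 points and -307.3. With the replicate letter as a block, 3133 were called higher and 3588 lower, 89 were nearly lost and no other count moved by over 1.5 times. Deviations of same-letter IP and input correlated at 0.0189, 0.00789 and -0.0156 in WAGO-1 P3G and at 0.350, 0.232 and 0.0463 in CSR-1. Different-letter pairs ran from -0.0365 to 0.0295 in WAGO-1 P3G and from -0.296 to 0.130 in CSR-1. Since not every same-letter pair was over 0.1, the letters were not taken to pair the samples. Pairing was not judged for CSR-1 alone. Input depth limits low genes: rises from near 0 input counts have no measured size.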

Other observations

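The identifiers nearly lost from the WAGO-1 P3G IP held 7.23% ± 0.132 of identifier reads in the WAGO-1 P3G inputs and 2.64% ± 0.441 in the CSR-1 inputs (SD, n = 3 each). Their share in the CSR-1 IPs was 0.811% ± 0.138. In whole animals, fewer cells of a type and less small RNA per cell cannot be told apart. The 100 identifiers most abundant in the WAGO-1 P3G IPs held 27.5% ± 0.806 in the WAGO-1 P3G inputs and 22.4% ± 0.760 in the CSR-1 inputs. With every library thinned to 334088 counted reads, 10849 ± 39.2 identifiers had a read per WAGO-1 P3G IP and 11643 ± 66.3 per input, against 16979 ± 112.9 and 11690.0 ± 119.5 without thinning.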
